A study of Homo sapiens with 12 samples.

Results

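The lysosomal hydrolases and the proton pump that acidifies their compartment were followed as 41 genes, taken by symbol from a table of 20307 genes, and all 41 were found. They comprise 17 genes of the vacuolar proton pump (V-ATPase) and its accessory subunits, 18 genes for hydrolases, their cofactors and lysosomal phosphatases, 3 genes for lysosomal membrane proteins and 3 genes of the MiT/TFE transcription factors. Cathepsins were not among them. RNA was sequenced in 12 libraries from 2 human lines, 3 in each of 4 groups: THP-1 labelled DCBLD2, THP-1 labelled control, H1299 labelled DCBLD2 and H1299 labelled control.

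THP-1 cells, which derive from a monocytic leukaemia, acquire macrophage features under the phorbol ester PMA, and H1299 cells derive from a lung carcinoma of the non-small-cell kind. All THP-1 libraries carry the genotype label WT and came from cells given PMA for 24 h and then kept for 48 h with H1299 cells, DCBLD2 ones for the group labelled DCBLD2 and control ones for the group labelled control. The design text calls this co-culture and the sample labels call it supernatant, so whether the cells touched is not settled. The H1299 libraries carry the genotype DCBLD2 overexpression or WT, and the labels name neither a vector nor a clone. DCBLD2, a transmembrane receptor-like protein, measured 105, 98.2 and 92.5 TPM (transcript abundance scaled for gene length and library size) in H1299 labelled DCBLD2, against 247, 148 and 196 TPM in H1299 labelled control. It was lower, not higher, in the libraries labelled as overexpressing it (log2 fold change -1.27, edgeR adjusted p = 0.00284), so groups are called by their labels throughout. In THP-1 it measured 6.53, 6.61 and 6.27 TPM in the group labelled DCBLD2, against 11.4, 12.2 and 12.01 TPM in the group labelled control. Whether group labels were exchanged, or the introduced copy was not counted, was not tested. Had the labels been exchanged in a line, every direction given for the label in that line would turn.

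Each library held between 14578887 and 26787853 estimated reads. Macrophage and monocyte markers summed to between 4870 and 6892 TPM in THP-1 libraries and to between 1.06 and 4.17 TPM in H1299 libraries, and the carcinoma markers summed to at most 181 TPM in THP-1 and at least 1571 TPM in H1299. The biological coefficient of variation, the spread between libraries of a group beyond counting noise, was 1.96% in THP-1 and 13.3% in H1299. Nothing in the labels says that the 3 libraries of a group came from separate cultures, so p-values measure the spread between these libraries, which may be technical. In bulk RNA, fewer cells of a type and less RNA per cell cannot be told apart.

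Lysosomes break down lipids, glycans and proteins with hydrolases that work at acid pH. The V-ATPase keeps that pH by moving protons through its membrane sector V0, driven by ATP hydrolysis in its cytosolic sector V1. Macrophages are rich in lysosomes because they digest what they engulf, and the MiT/TFE factors TFEB, TFE3 and MITF bind E-boxes with the core CACGTG in the promoters of many lysosomal genes, an arrangement known as the CLEAR element.

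The promoters show how that core is spread over the genes studied here. RefSeq promoter windows (GRCh38.p14, from 250 bases before to 50 bases after the start of transcription) were matched for 30 of the 41 genes. CACGTG, which reads the same on both strands, was present in 9 of these 30 (30.0%), against 10.945% of 15340 genes with windows of the same length. A gene counted once if any of its windows held the core. The core preceded by GT and followed by AC, whose matches are also matches of the core, was present in 3 of 30 (ATP6V1G1, GAA and MCOLN1), against 0.665% of the 15340 genes. A match describes the letters of the window and not a bound site.

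The sequences are shown 5′ to 3′ on the strand of the gene, with CACGTG in capitals, for 6 genes that hold the core and for GM2A and PPT1, 2 of the hydrolase-side genes with large changes in THP-1, whose stretches hold none. LAMP1 (the 200 bases before its start, chr13:113297039-113297238 on the plus strand) has 5 copies in this stretch. ATP6V0B (chr1:43974860-43974959 on the plus strand), MCOLN1 (chr19:7522524-7522623 on the plus strand) and GAA (chr17:80101481-80101580 on the plus strand) have 2 each within 100 bases. ATP6V0D1 (chr16:67481158-67481257 on the minus strand) and ATP6V1G1 (chr9:114587669-114587768 on the plus strand) have 1 each. The last pair are GM2A (chr5:151253085-151253184 on the plus strand) and PPT1 (chr1:40097253-40097352 on the minus strand).
LAMP1: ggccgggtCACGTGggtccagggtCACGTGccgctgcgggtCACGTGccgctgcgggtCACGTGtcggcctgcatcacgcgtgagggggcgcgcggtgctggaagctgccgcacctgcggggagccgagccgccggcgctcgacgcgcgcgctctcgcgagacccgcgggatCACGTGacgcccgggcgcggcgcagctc
ATP6V0B: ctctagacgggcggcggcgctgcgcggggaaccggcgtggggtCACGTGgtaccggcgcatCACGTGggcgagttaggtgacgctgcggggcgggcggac
ATP6V0D1: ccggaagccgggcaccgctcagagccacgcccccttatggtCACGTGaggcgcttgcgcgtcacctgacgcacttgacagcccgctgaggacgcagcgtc
MCOLN1: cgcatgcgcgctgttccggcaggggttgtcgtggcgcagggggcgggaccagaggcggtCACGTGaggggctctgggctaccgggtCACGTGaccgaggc
GAA: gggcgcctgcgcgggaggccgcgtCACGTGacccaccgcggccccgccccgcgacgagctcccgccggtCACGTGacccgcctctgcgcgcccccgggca
ATP6V1G1: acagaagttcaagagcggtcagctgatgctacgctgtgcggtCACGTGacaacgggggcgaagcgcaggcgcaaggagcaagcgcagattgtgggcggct
GM2A: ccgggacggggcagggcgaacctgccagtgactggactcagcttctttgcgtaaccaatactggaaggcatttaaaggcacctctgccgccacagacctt
PPT1: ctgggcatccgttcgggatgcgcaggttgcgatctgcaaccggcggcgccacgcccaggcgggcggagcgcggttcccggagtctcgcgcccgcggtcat

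The genes shown do not share 1 direction in THP-1. Of the 9 genes with the core, 3 were higher in THP-1 labelled DCBLD2 than in THP-1 labelled control (ATP6V0B, ATP6V0D1 and MCOLN1), 4 were lower (GAA, LAMP1, NEU1 and ACP5) and 2 did not pass the test (ARSB and ATP6V1G1). Over all 13120 genes tested in this comparison, 34.5% were called higher and 33.6% lower, so these counts set the genes with the core little apart. Their changes are given with their classes below.

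The level of the lysosomal genes in the 2 cell lines was compared first, between the groups labelled control. PMA-treated THP-1 held far more of this RNA: all members together summed to 9467, 9563 and 9445 TPM in THP-1 labelled control, against 2899, 2804 and 2743 TPM in H1299 labelled control. Of the 41 genes, 36 were higher in THP-1, 1 was lower (ATP6V1D) and 4 did not pass the test (ATP6V1C1, ATP6V1G1, MCOLN1 and GUSB). The test was edgeR's quasi-likelihood test with Benjamini-Hochberg adjustment over all genes and a threshold of 0.05, and it called 84.8% of the 13892 genes tested, 41.7% higher and 43.1% lower. TPM did not overlap between the lines for any of the 41 genes, as for 85.6% of all genes tested. Of the 41, 34 were at least 1.5-fold higher (35.3% of all genes tested were) and ATP6V1D was at least 1.5-fold lower (35.9%). The median log2 fold change was 1.84 over the members and -0.03 over all genes tested. Cell line, PMA and culture medium cannot be told apart in this comparison.

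PPT1 and PSAP had the highest levels of the 41 genes in THP-1 labelled control. PPT1, a thioesterase that removes palmitate from proteins, measured 1924, 1926 and 1927 TPM in THP-1 labelled control, against 75.9, 78.0 and 84.4 TPM in H1299 labelled control. PSAP, the precursor of the saposins that present sphingolipids to their enzymes, measured 1257, 1247 and 1249 TPM, against 343, 312 and 298 TPM. GM2A, the activator protein for breakdown of ganglioside GM2, was lower in abundance and measured 168, 169 and 172 TPM, against 11.97, 13.6 and 13.0 TPM. The 2 lines did not overlap in any of these 3 genes, which were 4.87, 2.40 and 4.04 log2 units higher in THP-1 (SE 0.07, 0.06 and 0.08; adjusted p = 7.85e-11, 2.12e-09 and 3.82e-10 in that order, edgeR).

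Several genes had very few reads in H1299. TFEB measured 52.3, 51.2 and 53.2 TPM in THP-1 labelled control and 1.49, 1.47 and 1.26 TPM in H1299 labelled control. MITF measured 10.3, 12.8 and 7.83 TPM, against 0.386, 0.035 and 0.392 TPM, while TFE3 was closer in the 2 lines (56.5, 57.4 and 55.8 TPM, against 49.4, 45.2 and 49.998 TPM). TFEB and TFE3 thus stood close together in THP-1, and TFE3 made up nearly all of the MiT/TFE TPM in H1299. ATP6V0D2, a d-subunit of V0 best known from osteoclasts and macrophages, had 164, 155 and 156 reads in THP-1 labelled control and 0, 2 and 1 reads in H1299 labelled control. ACP5, the tartrate-resistant acid phosphatase of osteoclasts and activated macrophages, had 156, 110 and 128 reads, against 2, 3 and 3 reads.

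V1 was the least unequal sector. ATP6V1D, the central stalk subunit of V1, was the only gene called lower in THP-1, at 46.7, 44.4 and 47.5 TPM in THP-1 labelled control, against 117, 92.1 and 110 TPM in H1299 labelled control (log2 fold change -0.87 ± 0.08, SE, adjusted p = 9.67e-06, edgeR). The other V1 genes ran from ATP6V1G1, which did not pass the test, to ATP6V1B2, the B subunit of the catalytic head, with 249, 259 and 253 TPM in THP-1 against 31.0, 33.6 and 38.2 TPM in H1299. All 7 V0 genes were higher in THP-1, with a median log2 fold change of 2.67 for V0 and 0.75 for V1.

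**Figure D1:**
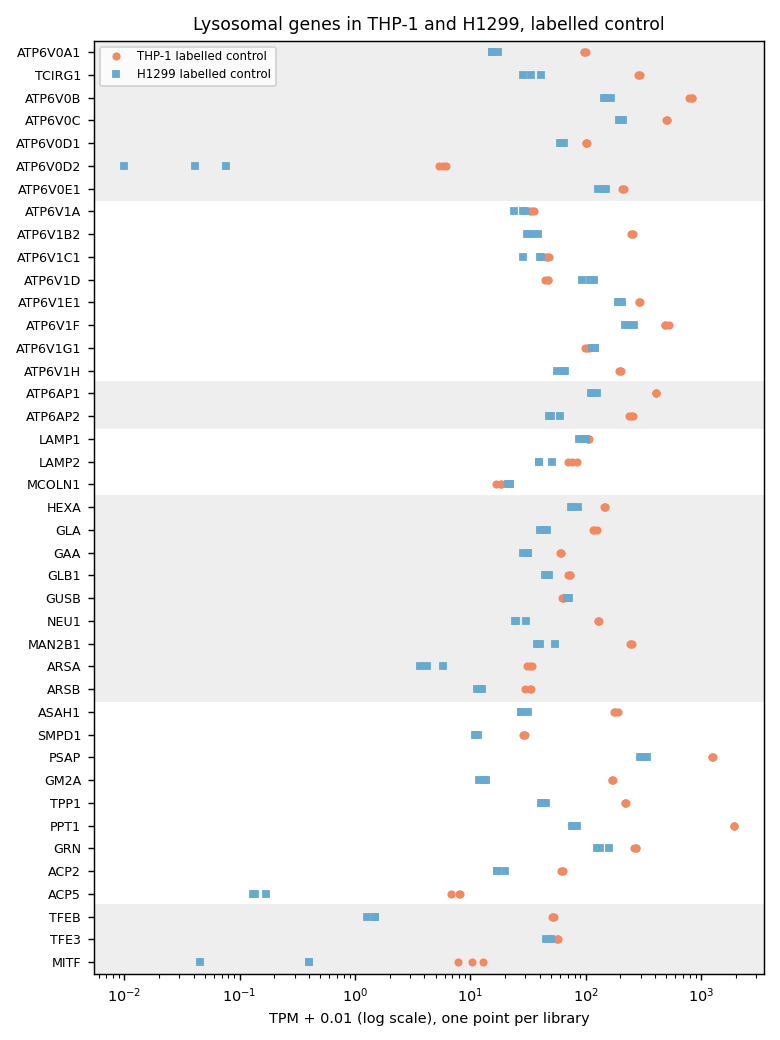
TPM plus 0.01 of each of the 41 genes (rows, grouped by class with grey and white bands) in the 3 libraries of THP-1 labelled control (circles) and of H1299 labelled control (squares), on a log axis. The THP-1 points lie to the right for the 36 genes called higher and to the left for ATP6V1D, which was called lower. They also lie to the left for ATP6V1G1, MCOLN1 and GUSB and to the right for ATP6V1C1, and these 4 did not pass the test. In the edgeR fit 40 of the 41 changes were positive, so TPM and the fit differ in sign for ATP6V1G1, MCOLN1 and GUSB. PPT1 and PSAP have the highest THP-1 values.

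The effect of the DCBLD2 label was then examined in THP-1, where most hydrolase-side genes were lower and the proton pump genes were divided. Of 41 genes tested, 13 rose in THP-1 labelled DCBLD2, 25 fell and 3 did not pass the test, in a comparison in which 68.1% of the 13120 genes tested were called, 34.5% higher and 33.6% lower. Of the 18 hydrolases, cofactors and phosphatases, 14 fell, 3 rose and 1 did not pass, with a median log2 fold change of -0.31, while the 17 pump genes divided into 8 that rose, 8 that fell and 1 that did not pass, with a median of -0.03. The median over all genes tested was 0.00. TPM did not overlap between the groups for 36 of the 41 genes, against 64.9% of all genes tested. Changes of at least 1.5-fold were fewer: 3 genes rose by that much (11.3% of all genes tested did) and 6 fell by it (9.92%). The small spread between THP-1 libraries bears on these counts. At the larger spread of the H1299 libraries, tried after seeing the data with edgeR's likelihood ratio test, 4 genes passed as higher and 12 as lower. Over all 13120 genes, 2358 passed as higher and 2173 as lower in that setting. With all 12 libraries in one fit, 8 of the 41 were higher and 20 lower, and 2978 and 3186 of all 14244 genes.

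The steepest falls were in the class of sphingolipid and protein hydrolases, cofactors and phosphatases, where 8 of 9 genes fell, 1 rose and the median was -0.53. GM2A (chr5:151212150-151270440, GRCh38) measured 59.3, 59.3 and 61.2 TPM in THP-1 labelled DCBLD2, against 168, 169 and 172 TPM in THP-1 labelled control. The groups did not overlap, and GM2A was 2.77-fold lower (log2 fold change -1.47 ± 0.02, SE, adjusted p = 5.67e-26, edgeR). PPT1 (chr1:40071461-40097727) measured 1102, 1134 and 1126 TPM, against 1924, 1926 and 1927 TPM, again with a wide gap between the groups (-0.75 ± 0.01, adjusted p = 1.32e-24). ACP5 (chr19:11574660-11579008) was at 1.32, 1.24 and 1.73 TPM, against 8.02, 6.80 and 8.13 TPM. That is 30, 30 and 27 reads against 156, 110 and 128 reads, and the fall was 2.33 log2 units with an SE of 0.17 (adjusted p = 6.25e-12).

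A pair of further genes of this class, named after their values were seen, also fell without overlap. PSAP measured 840.0, 848 and 854 TPM in THP-1 labelled DCBLD2, against 1257, 1247 and 1249 TPM in THP-1 labelled control (-0.53 ± 0.01, adjusted p = 3.29e-21, edgeR). ASAH1, the acid ceramidase that cleaves ceramide, measured 105, 106 and 105 TPM, against 176, 180 and 190.3 TPM (-0.71 ± 0.03, adjusted p = 1.97e-18). TPP1, a tripeptidyl peptidase, ACP2, a lysosomal acid phosphatase, and SMPD1, the acid sphingomyelinase, fell by 0.41, 0.38 and 0.22 log2 units. GRN, the progranulin precursor, was the one that rose, at 267, 290 and 285 TPM against 270.4, 275 and 261 TPM. Its groups overlapped in TPM, the fitted change was small (0.10 ± 0.03, adjusted p = 0.00145), and it did not pass with limma on log2(TPM + 1) (adjusted p = 0.165, with a range of 1.47e-06 to 0.667 over 15 alternatives).

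Because PPT1 and PSAP are so abundant, they carried most of the summed fall. The 18 hydrolase-side genes summed to 3386, 3502 and 3483 TPM in THP-1 labelled DCBLD2, against 5019, 5018 and 5024 TPM in THP-1 labelled control. Without PPT1 and PSAP, the sums were 1443, 1520 and 1503 TPM, against 1838, 1845 and 1848 TPM. The groups stayed apart in both sums, which are descriptions with no test.

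Of the glycan hydrolases and sulfatases, 6 of 9 fell, 2 rose and 1 did not pass, with changes between -0.48 and 0.21 log2 units. NEU1, the lysosomal sialidase, measured 88.4, 91.8 and 97.9 TPM in THP-1 labelled DCBLD2, against 129, 131 and 127 TPM in THP-1 labelled control (-0.48 ± 0.03, adjusted p = 2.06e-14, edgeR). HEXA, the alpha subunit of beta-hexosaminidase, was at 111, 122 and 113 TPM, against 147, 145 and 146 TPM (-0.32 ± 0.03). GLB1, the lysosomal beta-galactosidase, was at 54.6, 56.1 and 59.3 TPM, against 69.5, 73.8 and 73.7 TPM (-0.31 ± 0.03). GLA, GUSB and GAA (alpha-galactosidase, beta-glucuronidase and acid alpha-glucosidase) fell by 0.30, 0.21 and 0.15 log2 units. At the H1299 spread NEU1 still passed, but HEXA, GLB1, GLA, GUSB and GAA did not (adjusted p 0.103 to 0.49, edgeR's likelihood ratio test). GAA also did not pass with all 12 libraries in one edgeR fit (adjusted p = 0.114).

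The 2 genes of this class that rose were MAN2B1, lysosomal alpha-mannosidase, and ARSA, the sulfatase that acts on sulfatide. MAN2B1 measured 270, 280 and 272 TPM in THP-1 labelled DCBLD2, against 252, 245 and 244 TPM in THP-1 labelled control (0.20 ± 0.02, adjusted p = 3.46e-09, edgeR). ARSA measured 34.9, 37.8 and 35.8 TPM, against 33.2, 33.9 and 30.9 TPM (0.21 ± 0.04, adjusted p = 0.00013). Neither overlapped. ARSB, the sulfatase of dermatan sulfate, ranged from 29.4 to 34.2 TPM against 30.0 to 33.7 TPM, overlapped and did not pass.

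**Figure D2:**
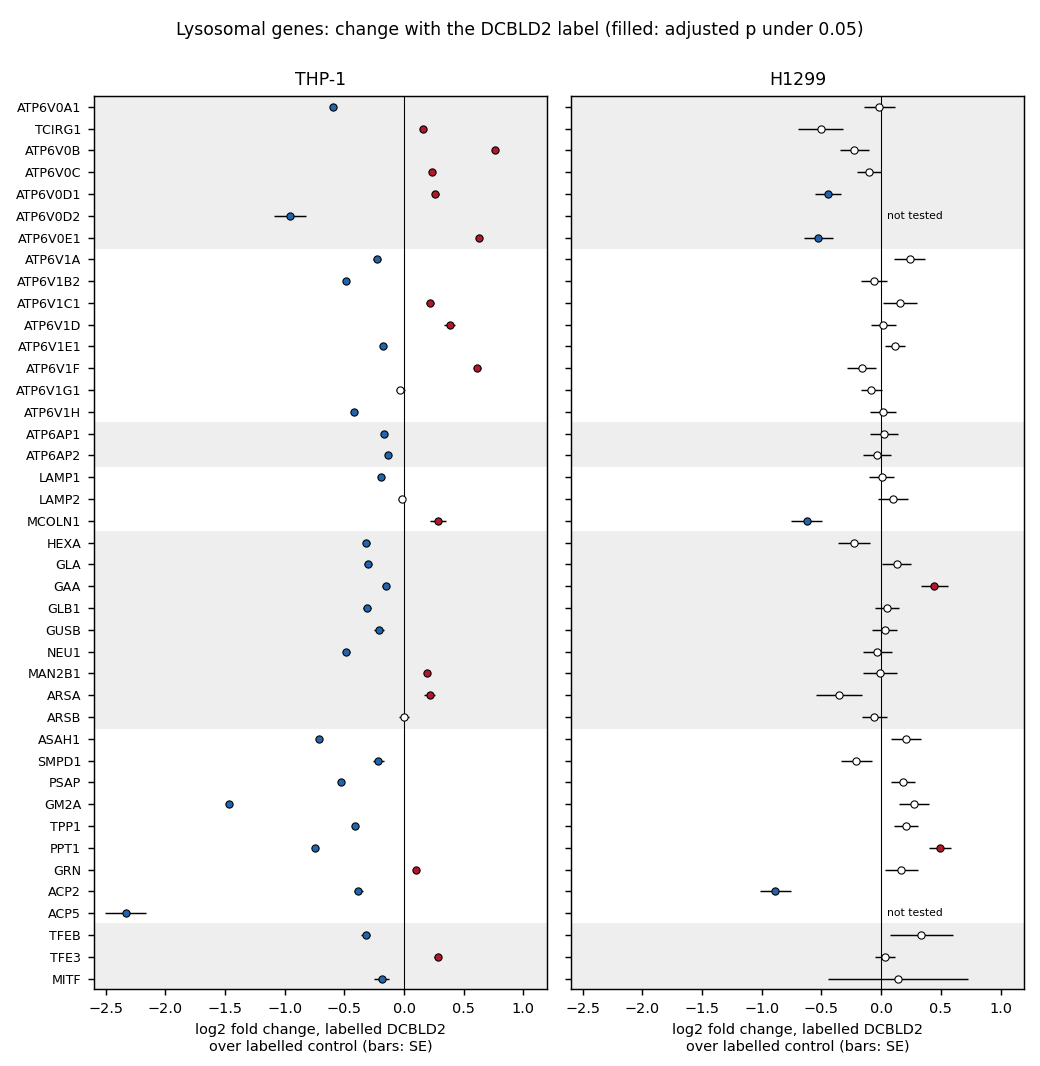
Log2 fold change of each of the 41 genes, labelled DCBLD2 over labelled control, in THP-1 (left) and H1299 (right), with SE bars and the classes as grey and white bands. Filled points passed the test (red higher, blue lower): 38 of 41 in THP-1 and 6 of 39 in H1299, where the bars are wider.

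In the proton pump, V0 was mostly higher: 5 of its 7 genes rose, 2 fell and the median was 0.24. ATP6V0B, a proteolipid of the rotating ring (chr1:43974487-43978295), measured 1345, 1364 and 1335 TPM in THP-1 labelled DCBLD2, against 829, 836 and 781 TPM in THP-1 labelled control. It was 1.70-fold higher without overlap (0.76 ± 0.02, adjusted p = 9.66e-21, edgeR). ATP6V0E1, the small e subunit, measured 322, 315 and 311 TPM, against 208, 217 and 209.7 TPM (0.62 ± 0.02, adjusted p = 3.34e-18). ATP6V0C, the other ring proteolipid, rose by 0.24 log2 units.

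The a and d subunits each come from alternative genes, and within each pair the fitted changes had opposite signs. ATP6V0A1 measured 62.5, 63.8 and 66.2 TPM in THP-1 labelled DCBLD2, against 97.3, 96.7 and 99.8 TPM in THP-1 labelled control (-0.59 ± 0.02, adjusted p = 2.47e-17, edgeR). TCIRG1, which encodes the a3 isoform used by osteoclasts and by lysosomes of macrophages, measured 304, 307 and 317 TPM, against 288, 295 and 282 TPM (0.16 ± 0.02, adjusted p = 1.58e-07). TCIRG1 thus made up 82.8 ± 0.131% of the TPM of this pair in THP-1 labelled DCBLD2 and 74.6 ± 0.745% in THP-1 labelled control (SD, n = 3 each).

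For the d subunits, ATP6V0D1, the broadly expressed form, measured 118, 119 and 122 TPM in THP-1 labelled DCBLD2, against 101, 103 and 102 TPM in THP-1 labelled control (0.26 ± 0.03, adjusted p = 2.96e-08, edgeR). ATP6V0D2 measured 3.42, 2.43 and 2.82 TPM, against 5.34, 5.78 and 6.12 TPM (-0.95 ± 0.13, adjusted p = 7.07e-07), with no overlap in either gene. In each pair, the call of the gene that was higher depended on the spread used. TCIRG1 had an adjusted p of 0.344 with all 12 libraries in one edgeR fit and 0.458 at the H1299 spread, the highest of 15 alternatives, and ATP6V0D1 had 0.193 at the H1299 spread, also its highest. ATP6V0A1 and ATP6V0D2 passed in all 15. ATP6V0D2 made up 2.35 ± 0.411% of the TPM of the d pair in THP-1 labelled DCBLD2 and 5.34 ± 0.338% in THP-1 labelled control (SD, n = 3 each). These shares compare the listed pairs only and leave out other a subunits.

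V1 was divided. ATP6V1F, a small stalk subunit, measured 753, 719 and 767 TPM in THP-1 labelled DCBLD2, against 486, 524 and 490.2 TPM in THP-1 labelled control (0.61 ± 0.03, adjusted p = 3.92e-16, edgeR). ATP6V1D measured 57.0, 54.5 and 61.9 TPM, against 46.7, 44.4 and 47.5 TPM (0.38 ± 0.05), and ATP6V1C1, which joins V1 to V0, measured 54.3, 56.9 and 50.3 TPM, against 48.4, 46.5 and 45.3 TPM (0.22 ± 0.03). None of the 3 overlapped.

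The subunits of the catalytic head and ATP6V1H fell. ATP6V1B2 measured 169.6, 184 and 178 TPM in THP-1 labelled DCBLD2, against 249, 259 and 253 TPM in THP-1 labelled control (-0.49 ± 0.02, adjusted p = 4.99e-17, edgeR). ATP6V1A, the subunit that hydrolyses ATP, measured 27.6, 28.6 and 29.05 TPM, against 35.4, 34.5 and 33.2 TPM (-0.23 ± 0.03, adjusted p = 1.44e-06). ATP6V1H, a regulatory subunit that bridges V1 and V0, measured 145, 145 and 146 TPM, against 202, 198 and 196 TPM (-0.42 ± 0.02, adjusted p = 8.66e-15). ATP6V1E1, a peripheral stalk subunit, fell by 0.18 log2 units, and its stalk partner ATP6V1G1, which overlapped between the groups, ranged from 93.9 to 100.02 TPM against 97.9 to 107 TPM and did not pass.

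The accessory subunits ATP6AP1 and ATP6AP2, which assist assembly of the pump, both fell. ATP6AP1 measured 355, 363 and 359 TPM in THP-1 labelled DCBLD2, against 406, 409.8 and 403 TPM in THP-1 labelled control (-0.17 ± 0.02). ATP6AP2 measured 195, 211 and 207 TPM, against 239, 258 and 245 TPM (-0.14 ± 0.02), and neither overlapped. ATP6AP1 and ATP6AP2 did not pass with all 12 libraries in one edgeR fit (adjusted p = 0.102 and 0.144). Neither did they at the H1299 spread (0.42 and 0.531, edgeR's likelihood ratio test). Taken as a sum, the 17 pump genes were higher, at 4809, 4871 and 4900 TPM against 4135, 4225 and 4094 TPM. Without ATP6V0B, ATP6V0E1 and ATP6V1F, left out after their values were seen, the order turned: 2389, 2473 and 2488 TPM in THP-1 labelled DCBLD2, against 2612, 2648 and 2614 TPM in THP-1 labelled control. These were the 3 pump genes that rose at least 1.5-fold, and no gene that fell was left out. That choice favours such a turn, so it adds little to the changes of single genes.

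**Figure D3:**
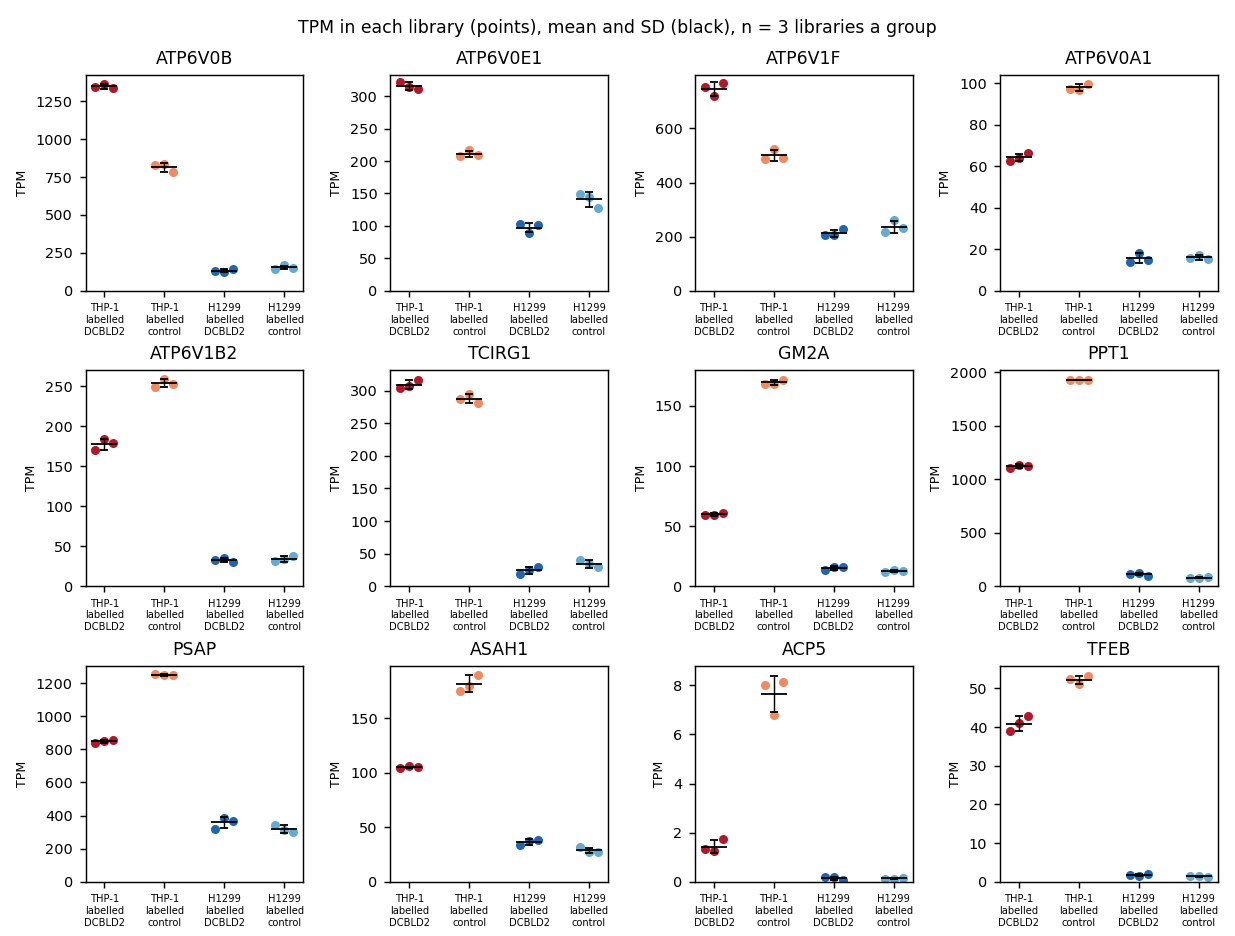
TPM of 12 genes in every library (points), with the mean and SD in black, in THP-1 labelled DCBLD2, THP-1 labelled control, H1299 labelled DCBLD2 and H1299 labelled control (n = 3 each). In THP-1 the points of labelled DCBLD2 lie above those of labelled control for ATP6V0B, ATP6V0E1, ATP6V1F and TCIRG1 and below them for the other 8 genes.

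Among lysosomal membrane proteins, MCOLN1 and LAMP1 moved in opposite directions. MCOLN1, the calcium release channel TRPML1, measured 21.1, 21.5 and 20.2 TPM in THP-1 labelled DCBLD2, against 18.5, 16.8 and 18.3 TPM in THP-1 labelled control (0.29 ± 0.07, adjusted p = 0.000438, edgeR). LAMP1, a structural glycoprotein of the membrane, measured 89.1, 91.6 and 89.5 TPM, against 104, 105 and 107 TPM (-0.19 ± 0.02, adjusted p = 2.06e-07). LAMP2, its relative, ranged from 66.1 to 74.4 TPM against 70.9 to 84.0 TPM, overlapped and did not pass. At the H1299 spread MCOLN1 and LAMP1 did not pass either (adjusted p = 0.174 and 0.365, edgeR's likelihood ratio test).

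The MiT/TFE factors did not move as a block. TFEB measured 38.9, 40.9 and 42.8 TPM in THP-1 labelled DCBLD2, against 52.3, 51.2 and 53.2 TPM in THP-1 labelled control (-0.32 ± 0.04, adjusted p = 6.35e-08, edgeR). TFE3 measured 66.1, 65.7 and 69.8 TPM, against 56.5, 57.4 and 55.8 TPM (0.28 ± 0.03, adjusted p = 4.5e-09). At the H1299 spread neither TFEB nor TFE3 passed (adjusted p = 0.111 and 0.156, edgeR's likelihood ratio test), while both passed in the other alternatives. MITF measured 8.41, 7.15 and 8.18 TPM, against 10.3, 12.8 and 7.83 TPM, and its groups overlapped. The MITF change of -0.19 ± 0.06 (adjusted p = 0.0102) did not pass without THP-1 labelled control replicate 2 (adjusted p = 0.0628) or with limma on log2(TPM + 1) (0.0783), and ranged from 0.00615 to 0.424 over 15 alternatives. TFEC, the remaining member of this family, is not among the 41 genes and averaged 14 ± 0.122 TPM in THP-1 labelled DCBLD2 and 8.14 ± 0.835 TPM in THP-1 labelled control (SD, n = 3 each), a log2 change of 0.90 (adjusted p = 1.04e-12, edgeR). These factors are regulated largely by where their proteins are in the cell, which RNA does not show.

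**Figure D4:**
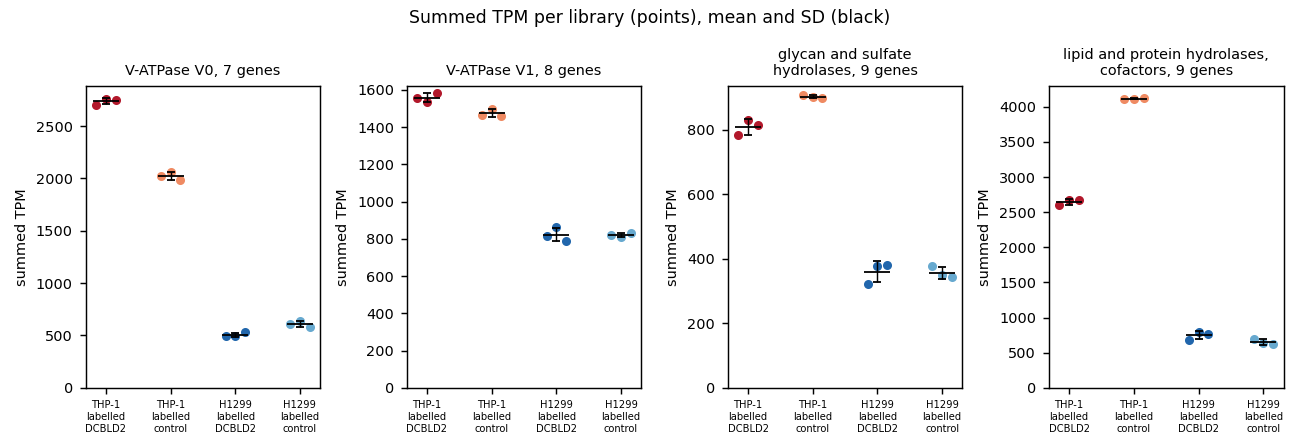
Summed TPM per library (points) with the mean and SD (black) for V0 (7 genes), V1 (8), glycan hydrolases and sulfatases (9) and the lipid and protein class (9), in THP-1 labelled DCBLD2, THP-1 labelled control, H1299 labelled DCBLD2 and H1299 labelled control. In THP-1 the V0 sum is higher in labelled DCBLD2 (2702 to 2762 TPM against 1988 to 2059 TPM) and the lipid and protein sum is lower (2603 to 2672 TPM against 4112 to 4125 TPM).

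Genes of the same pathway outside the 41 are read against the 34.5% of all tested genes that were higher in THP-1 labelled DCBLD2 and the 33.6% that were lower. Of 22 other hydrolases and cofactors, 10 fell, 6 rose and 6 did not pass, with a median log2 fold change of -0.05. LIPA, which hydrolyses cholesteryl esters, averaged 97.8 ± 1.27 TPM in THP-1 labelled DCBLD2 and 173 ± 3.44 TPM in THP-1 labelled control (SD, n = 3 each), a log2 change of -0.79. The dipeptidyl peptidase DPP7 changed by 0.44. Of 20 other membrane proteins and transporters, 9 fell and 4 rose, with a median of -0.02. The cholesterol exporter NPC1 changed by -1.09 log2 units while its soluble partner NPC2 changed by 0.33, the sialic acid exporter SLC17A5 by -0.85 and the chloride-proton exchanger CLCN7 by -0.29.

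Of 12 genes that sort enzymes to the lysosome, 7 fell and 2 rose, with a median log2 fold change of -0.18. The mannose 6-phosphate receptors IGF2R and M6PR, which carry new hydrolases from the Golgi, changed by -0.81 and -0.38 log2 units and the adaptor GGA2 by -0.49, while the alternative receptor SORT1 changed by 0.91. Of 12 MiT/TFE target genes, autophagy genes together with GPNMB, 11 fell and 1 rose, with a median of -0.28. MAP1LC3B, GPNMB, WIPI1 and VPS11 were at -0.35, -0.62, -0.41 and -0.37. Of 15 genes around nutrient control of the MiT/TFE factors, 8 rose and 6 fell, among them LAMTOR4 at 1.16 and LAMTOR1 at 0.49 against RPTOR at -0.62. That list also held TFEC, described with the MiT/TFE factors. Of 9 further V-ATPase genes, 7 were tested, of which RNASEK and ATP6V0E2 rose (0.28 and 0.24) and ATP6V1C2 and ATP6V0A2 fell (-1.26 and -0.62). The ATP6V0E2 call was lost in 3 of 15 alternatives (highest adjusted p = 0.272, edgeR), and those of RNASEK, NPC2, CLCN7, MAP1LC3B and VPS11 in 1 each (at most 0.164).

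Other measures moved with the label in THP-1. Mitochondrially encoded genes took 2.46 to 2.58% of reads in THP-1 labelled DCBLD2 against 3.48 to 3.51% in THP-1 labelled control, and cytosolic ribosomal protein genes took 5.52 to 5.82% against 3.99 to 4.02%. The 10 macrophage and monocyte markers summed to 6841 to 6892 TPM against 4870 to 4933 TPM, with 8 higher and 2 lower. The 7 osteoclast markers summed to 2100 to 2185 TPM against 2743 to 2784 TPM, with 1 higher and 5 lower of 6 tested. The 10 carcinoma markers summed to 136 to 146 TPM against 171 to 181 TPM, with 2 of them at 0, and the 6 lymphocyte and endothelial markers to 148 to 157 TPM against 182 to 186 TPM. The part of these in the lysosomal changes was not tested.

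Transcript length also went with the direction of change. All tested genes were placed in 4 equal groups by their reads per TPM, which grows with transcript length. In length group 1, the shortest, 50.3% of all genes were higher in THP-1 labelled DCBLD2 and 18.3% lower, with a median log2 fold change of 0.19. Of 10 lysosomal genes in that group 6 were higher and 3 lower, and these 6 were the pump genes ATP6V0B, ATP6V0E1, ATP6V1F, ATP6V1D, ATP6V0D1 and ATP6V0C. Length group 2, with a median of -0.03 over all genes, held 19 of the 41 genes, 5 higher and 14 lower, with a median of -0.31. Length groups 3 and 4 held 10 and 2 genes, of which 2 and 0 were higher and 7 and 1 lower. Spearman's rho of log2 fold change with length was -0.28 over the 41 genes and -0.18 over all 13120, a description across genes that share their libraries. In H1299 the relation ran the other way, with a rho of 0.39 over 39 genes and 0.19 over all 12773. Length group 1 there had a median of -0.07, with 4.6% of all genes higher and 9.17% lower, and of its 10 lysosomal genes 2 were lower, ATP6V0D1 and ATP6V0E1. The part of length in the directions of pump and hydrolase genes was not tested.

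**Figure D5:**
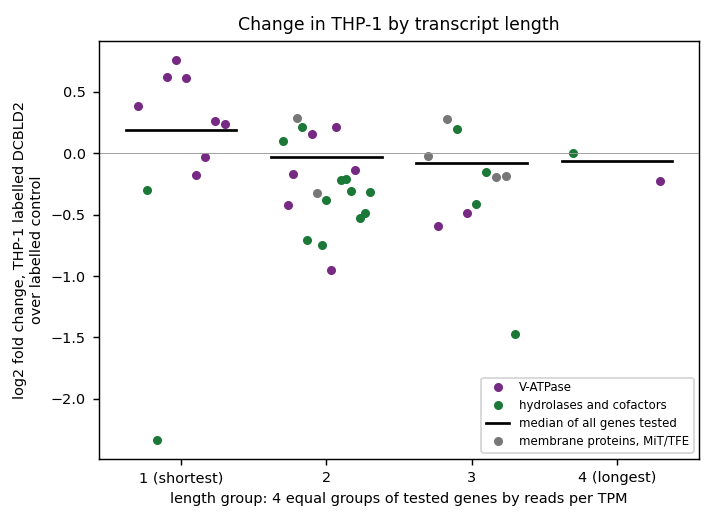
Log2 fold change of the 41 genes in THP-1, labelled DCBLD2 over labelled control, in 4 equal groups of all tested genes from shortest to longest (reads per TPM). Black lines are the medians of all genes tested in each group (0.19, -0.03, -0.08 and -0.06), and the pump genes that rose most lie in the shortest group while GM2A, at -1.47, lies in group 3.

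H1299 cells, the carcinoma cells that carry the genotype label themselves, had few calls among the same genes. Of the 39 genes tested, 2 were higher in H1299 labelled DCBLD2, 4 were lower and 33 did not pass, where 20.9% of the genes tested were called, 10.3% of 12773 higher and 10.6% lower. The median log2 fold change was 0.014 over these genes and 0.005 over all genes tested. TPM did not overlap for 13 of them, against 37.5% of all genes tested. ATP6V0D2 and ACP5 were not tested, with 0 to 3 and 1 to 4 reads per library. All genes together summed to 2657, 2924 and 2843 TPM in H1299 labelled DCBLD2, against 2899, 2804 and 2743 TPM in H1299 labelled control.

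The 4 genes that were lower were MCOLN1, ACP2, ATP6V0E1 and ATP6V0D1. ACP2 measured 10.4, 9.38 and 9.87 TPM in H1299 labelled DCBLD2, against 19.9, 17.1 and 17.0 TPM in H1299 labelled control (-0.89 ± 0.13, adjusted p = 0.00329, edgeR). MCOLN1 measured 13.0, 14.1 and 15.2 TPM, against 21.3, 22.2 and 22.0 TPM (-0.62 ± 0.13, adjusted p = 0.0129). These 2 were at least 1.5-fold lower, as were 5.7% of all genes tested, and neither overlapped. ATP6V0E1 measured 102, 88.9 and 101 TPM, against 149, 145 and 128 TPM (-0.53 ± 0.12, adjusted p = 0.0161). ATP6V0D1 measured 47.7, 43.9 and 47.1 TPM, against 63.3, 64.3 and 60.0 TPM (-0.45 ± 0.11, adjusted p = 0.0212).

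The 2 genes that were higher were PPT1 and GAA. PPT1 measured 115, 123 and 99.998 TPM in H1299 labelled DCBLD2, against 75.9, 78.0 and 84.4 TPM in H1299 labelled control (0.49 ± 0.09, adjusted p = 0.00832, edgeR). GAA measured 36.7, 44.0 and 45.0 TPM, against 31.6, 28.7 and 31.9 TPM (0.45 ± 0.11, adjusted p = 0.0233). The groups did not overlap in either gene, and neither gene reached 1.5-fold (6.15% of all genes tested were at least that much higher). Without H1299 labelled DCBLD2 replicate 2, only ACP2 still passed: the adjusted p was 0.0531 for PPT1, 0.0941 for GAA, 0.0747 for MCOLN1, 0.0868 for ATP6V0E1 and 0.105 for ATP6V0D1. Calls fell over all genes in that setting, to 184 higher and 330 lower of 12915, against 1313 and 1356 of 12773 with every library. ATP6V0D1 also failed without H1299 labelled DCBLD2 replicate 1 (0.0559), and GAA without H1299 labelled DCBLD2 replicate 3 (0.0714) or H1299 labelled control replicate 3 (0.0634). Over 14 alternatives the highest adjusted p was 0.03 for ACP2, and the lowest ranged from 6.77e-07 for ACP2 to 0.000672 for MCOLN1.

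The isoform pairs and MiT/TFE genes, apart from ATP6V0D1, did not pass the test in H1299. TCIRG1 measured 18.7, 25.3 and 29.3 TPM in H1299 labelled DCBLD2, against 40.6, 33.4 and 28.8 TPM in H1299 labelled control, and the groups overlapped. ATP6V0A1 measured 13.7, 18.3 and 14.9 TPM, against 15.6, 17.4 and 15.3 TPM, and TCIRG1 made up 60.7 ± 4.88% of this pair, against 67.8 ± 3.92% (SD, n = 3 each). TFEB measured 1.83, 1.40 and 2.05 TPM, against 1.49, 1.47 and 1.26 TPM. TFE3 measured 50.7, 49.6 and 48.3 TPM, against 49.4, 45.2 and 49.998 TPM. MITF had 11, 12 and 15 reads, against 20, 2 and 19 reads.

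Among pathway genes outside the 41 in H1299, 4 of 22 other hydrolases were lower and 2 higher. SGSH, a heparan sulfate sulfamidase, averaged 21.3 ± 3.33 TPM in H1299 labelled DCBLD2 and 30.3 ± 0.699 TPM in H1299 labelled control (SD, n = 3 each), a log2 change of -0.55, and NAGLU changed by -0.49 and GALC by 0.40. Of 20 other membrane proteins 19 were tested, with 4 lower (TPCN2 at -0.85, CLCN7 at -0.49 and CTNS at -0.48 among them) and 3 higher, CD68 at 0.50 among them. WIPI1 at 0.88 and UVRAG at 0.44 were higher and VPS18 at -0.58 lower among the same 12 MiT/TFE target genes. Among 14 tested nutrient control genes, FNIP1 at 0.66 was higher and RRAGA at -0.44 lower, with MTOR at 0.31 the other higher one. Of 12 sorting genes, 0 passed edgeR's test after adjustment, 4 had an unadjusted p under 0.05, and 2 passed in DESeq2 and 0 in limma. CTNS, FNIP1, GALC, MTOR, NAGLU, RRAGA and UVRAG missed the threshold in 4 to 8 of 14 alternatives. ATP6V0E2 was 1 of 5 further V-ATPase genes tested, at -0.83. In these libraries the carcinoma markers summed to 1571 to 2030 TPM in H1299 labelled DCBLD2, against 2311 to 2421 TPM in H1299 labelled control, and the part of that in these values was not tested.

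The 2 cell lines' responses were compared directly by an interaction contrast over all 12 libraries, the THP-1 change minus the H1299 change. It was positive for 11 of the 41 genes and negative for 16 (ACP5 among them) at the adjusted threshold, where 19.3% of 14244 genes tested were called positive and 19.5% negative. This contrast holds 1 spread estimate for both lines (biological coefficient of variation 9.48%). Of the 6 genes called in H1299, 5 were called in THP-1 with the opposite sign. The same share over all genes was not counted, and 68.1% of all genes tested in THP-1 were called there. MCOLN1, ATP6V0D1 and ATP6V0E1 were higher in THP-1 labelled DCBLD2 and lower in H1299 labelled DCBLD2. PPT1 and GAA were the other way round. The differences were 0.90 ± 0.15 for MCOLN1, 0.70 ± 0.10 for ATP6V0D1, 1.14 ± 0.12 for ATP6V0E1, -1.25 ± 0.09 for PPT1 and -0.61 ± 0.11 for GAA (log2, SE), with adjusted p between 5.82e-07 and 0.000508 in edgeR. ATP6V0D1 and ATP6V0E1 are both in length group 1, whose genes leaned higher in THP-1 (median 0.19) and lower in H1299 (-0.07), and the part of that was not tested. At the H1299 spread, the THP-1 changes of MCOLN1, ATP6V0D1 and GAA did not pass (adjusted p 0.174, 0.193 and 0.49, each the highest of 15 alternatives), and that of GAA did not with all 12 libraries in one fit (0.114). ACP2 was lower in both lines, and more so in H1299 (difference 0.49 ± 0.11, adjusted p = 0.00311).

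Counts by class follow from the same contrast. ACP5, with 1 to 4 reads in each H1299 library, is left out of them, a choice made after seeing the data. ATP6V0D2, with 0 to 3 reads in each H1299 library, was kept among the pump genes, and its difference of -1.55 did not pass. Of the other 17 hydrolase-side genes, 9 had a more negative and 2 a more positive change in THP-1, with a median difference of -0.37, against 7 more positive and 5 more negative of the 17 pump genes, with a median of 0.04. GM2A had the most negative difference of a gene well covered in both lines (-1.76 ± 0.11, adjusted p = 2.1e-07, edgeR): it fell in THP-1 and measured 13.3, 15.8 and 16.2 TPM in H1299 labelled DCBLD2, against 11.97, 13.6 and 13.0 TPM in H1299 labelled control. In V0, 5 of 7 genes had a more positive change in THP-1. Without H1299 labelled DCBLD2 replicate 2, the genes with a negative difference numbered 10. Over all genes, that setting called 2030 of 14411 negative, against 2775 of 14244 with every library.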

How the data were processed

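The 12 libraries were grouped by their labels, and all 12 were used. RNA was isolated with Trizol and made into libraries by a NEBNext Ultra kit, per the labels' protocols. RSEM, StringTie 1.3.1, HISAT2, Bowtie2 2.2.8 and fastp 0.18.0 are named, with hg38, per the submitters' processing notes. The annotation and the strand setting are not given in the sources used. The authors deposited estimated counts and TPM per gene for each library. A gene that overlaps another, or has near-identical copies, carries an uncertain count. Gene positions are from GENCODE on GRCh38, in which 98.94% of identifiers were found.

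Deposited estimated counts, rounded to integers, went into edgeR 4.0.16 (R 4.3.3; two-sided quasi-likelihood test, TMM scaling, filterByExpr with a minimum of 10 counts), with 1 fit per cell line, 1 of the labelled control groups and 1 of all 12 libraries for the difference between lines. P-values were Benjamini-Hochberg adjusted over all genes tested, and genes with an adjusted p under 0.05 were called. TPM values were used for levels, with no test. Alternatives used DESeq2 1.42.0 and limma 3.58.1 on log2(TPM + 1), other filters and scalings, and each library left out in turn. The tests were checked on simulated counts. Libraries of 1 group differed by a chi-square per gene of 1.55 to 2.3 in THP-1 and 10.8 to 36.6 in H1299, above the 1 of counting noise, and all were kept.

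The members and lists were chosen with earlier results of these data known. Genes with values in every library are those called with up to 3 largest rises and falls per class and comparison, the a and d subunit pairs and the MiT/TFE genes; pathway genes are the 4 called with the smallest p per list, some of which are not reported here.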

Additional observations from a re-analysis of the deposited data

Results flagged for a closer look

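The label effect differed between THP-1 and H1299 for 27 of the 41 genes, by the interaction contrast over 12 libraries (THP-1 change minus H1299 change, log2, edgeR adjusted p under 0.05), where 38.7% of 14244 genes tested were called. The 27 include ACP5, whose H1299 reads are few, and 26 are left without it. Among the pump genes the difference was 1.14 for ATP6V0E1, 0.98 for ATP6V0B, 0.76 for ATP6V1F, 0.70 for ATP6V0D1, 0.65 for TCIRG1, 0.35 for ATP6V1D and 0.32 for ATP6V0C. It was -0.59 for ATP6V0A1, -0.48 for ATP6V1A, -0.45 for ATP6V1H, -0.44 for ATP6V1B2 and -0.30 for ATP6V1E1.

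Among the hydrolases, cofactors and phosphatases, the difference was -2.39 for ACP5, -1.76 for GM2A, -1.25 for PPT1, -0.93 for ASAH1, -0.73 for PSAP, -0.63 for TPP1, -0.61 for GAA, -0.46 for NEU1, -0.44 for GLA and -0.37 for GLB1. It was 0.55 for ARSA and 0.49 for ACP2. The ACP5 value rests on 1 to 4 reads per H1299 library, and without H1299 labelled DCBLD2 replicate 2 it was -1.81 with an adjusted p of 0.204 in edgeR (3.66e-06 to 0.204 over 17 alternatives). MCOLN1 had a difference of 0.90, TFEB of -0.67 and TFE3 of 0.24.

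Of the 27 calls, 16 passed in all 17 alternatives. TFE3 was lost in 6, TFEB, ARSA, ATP6V1D and GLA in 4 each, ATP6V1A and GLB1 in 3 each, ATP6V1E1 in 2 and TCIRG1, NEU1 and ACP5 in 1 each. Leaving out H1299 labelled DCBLD2 replicate 3 moved TFEB to -0.42 (edgeR adjusted p = 0.115, 0.00495 to 0.136 over the alternatives) and GLB1 to -0.24 (0.0834, 0.00681 to 0.0838). Without H1299 labelled DCBLD2 replicate 2, ATP6V1A was at -0.31 (0.0558, 0.00388 to 0.0641). Without H1299 labelled control replicate 1, ATP6V1B2 was at -0.27 and ATP6V1H at -0.30, and both passed.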

How the results depend on the processing

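No call of a member changed sign under any alternative run. In THP-1, with each library left out in turn, 13 to 13 members were higher and 24 to 25 lower. Fitting all 12 libraries together left 8 higher (20 lower), and over all genes 2978 higher and 3186 lower, against 4528 and 4413. With the common spread of H1299 and a likelihood ratio test, an alternative added after seeing the data, 4 were higher and 12 lower. Over all genes that setting called 2358 higher and 2173 lower. The 16 members called at the H1299 spread include GM2A, PPT1, ATP6V0B and ACP5. In H1299, 0 to 2 members were higher and 1 to 5 lower with a library left out, the fewest without labelled DCBLD2 replicate 2. That setting called 184 genes higher and 330 lower in all, against 1313 and 1356. With all 12 libraries in one fit 6 members were higher, and 2672 genes were higher in all, against 1313. Between the lines at labelled control, 36 to 39 members were higher and 1 to 1 lower with a library left out. There limma on log2(TPM + 1) gave 4 lower, adding ATP6V1G1, MCOLN1 and GUSB, whose changes in the main edgeR fit were positive and not called. The difference of responses was positive for 9 to 12 members and negative for 10 to 17.

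With a replicate block for the shared replicate numbers, 1 member was higher in H1299 (GAA and ATP6V0D1 did not pass, adjusted p = 0.061 and 0.0667 in edgeR) and 7 had a positive difference between lines. Same numbers gave no sign of pairing: deviations of same-numbered libraries correlated at 0.019, 0.051 and 0.024 in THP-1 and at -0.113, -0.398 and -0.411 in H1299. Some differently numbered H1299 libraries had positive correlations. Deviations were taken from the mean of each group, so negative correlations of some pairs go with positive ones of others. The signs alone do not show that libraries go together. Labelled DCBLD2 replicates 1, 2 and 3 correlated with labelled control replicates 3, 1 and 2 at 0.364, 0.371 and 0.521. The remaining H1299 pairs ran from -0.246 to 0.05. Whether such libraries share a batch or culture was not tested, and no fit models it. In CPM the TCIRG1 share was 74.9% in THP-1 labelled DCBLD2 and 63.9% in THP-1 labelled control, and the ATP6V0D2 share 3.55% and 7.89%. Depth limits ATP6V0D2 and ACP5 in H1299, where they had at most 4 reads per library and fell under the count minimum of the H1299 fit; they were tested there only with no filter or with all 12 libraries in one fit.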
